A study of Mus musculus with 6 samples.

Results

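Immunoglobulin genes were followed as transcripts of B lineage cells in bulk liver RNA, in 6 mRNA sequencing libraries from mice, with 1 library per group. Genes were taken by name (heavy, kappa and lambda variable genes, the Ighg and Iglc constant genes, Igha, Ighm, Igkc and Jchain) and kept when their counts summed over the 6 libraries to at least 10. Of the 34745 genes in the table, 362 had such a name and 121 passed, while 241 stayed under the threshold and 156 of those had no count in any library. The 121 genes were 10 constant genes, Jchain, 52 Ighv, 56 Igkv and 2 Iglv genes. Ighv1-61 and Ighv1-7 lay just inside the threshold with 10 counts each, and Ighv5-9 and Igkv13-84 just outside with 9 each. The genes were thus chosen on their summed counts, and most of those counts came from 1 library, so the number of members that were high there is a description only.

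The groups were normal liver of wild-type C57BL/6 males aged 9 months, precancerous liver and liver tumor (HCC) of Hras12V transgenic males aged 9 months, and the same 3 tissues from females aged 15 months. All mice were on the C57BL/6 background and none was treated. Age differed with sex throughout, and their effects cannot be told apart. Per the series description the precancerous tissue lay next to tumor. The promoter of the Hras12V transgene, and whether a library held 1 mouse or a pool, are not given in the sources used here. Libraries summed to between 5996585 counts (male normal liver) and 18434508 counts (female tumor), so 3 counts corresponded to between 0.163 and 0.50 on the counts-per-million scale (CPM). Hepatocyte genes were abundant in every library, with Alb alone at 57409 to 139939 CPM.

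An antibody is built from heavy chains and kappa or lambda light chains, each with a variable segment that binds antigen and a constant segment that sets the class. Ighm, Igha and the Ighg genes encode the constant parts of IgM, IgA and IgG. Plasma cells are the antibody-secreting end stage of the B lineage and carry very large amounts of these transcripts, whereas B cells carry fewer, and J chain links IgM and IgA into multimers that the polymeric immunoglobulin receptor (Pigr) can carry across epithelia. The transcripts come from both cell stages, and in bulk tissue fewer cells of a type and less RNA per cell cannot be told apart. Of 12 listed plasma cell genes, Tnfrsf17 had 0 counts in all 6 libraries, and Mzb1 had 1, 1 and 3 counts in male and 47, 6 and 7 in female normal, precancerous and tumor tissue. The transcription factors Prdm1 and Irf4 and the receptor Slamf7, which other lymphocytes also carry, had counts in every library (4 to 45, 3 to 42 and 2 to 70). Irf4 measured 2.38, 0.864 and 1.25 CPM in female normal, precancerous and tumor tissue, and was highest in female normal liver. In the male tissues Irf4 had only 3, 3 and 6 counts. Prdm1 measured 0.667, 1.02 and 3.27 CPM in the male and 1.36, 1.46 and 2.44 CPM in the female tissues. It was thus lowest in normal liver and highest in tumor in both sexes. The counts below are described as immunoglobulin transcripts and not as plasma cells.

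The female normal library stood apart from the other 5. The 121 genes together gave 954 CPM there (95% exact Poisson interval 940 to 969; intervals here and below cover counting error only). In the males the sum was 75.7 CPM (68.9 to 83.0) in normal liver, 46.1 CPM (41.2 to 51.5) in precancerous liver and 134 CPM (126 to 143) in tumor. In the other female libraries it was 88.3 CPM (83.6 to 93.2) in precancerous liver and 128 CPM (123 to 133) in tumor. Female normal liver was therefore 12.6 times male normal liver (11.5 to 13.9), and no other pair of libraries of 1 tissue differed this much. The highest CPM of 97 of the 121 genes was in female normal liver, against 14.3% of all genes tested. In that library 34 of the 121 were at least 4 times every other library, against 0.263% of all genes (45 genes in all). Leaving this library out changed the calls in all 4 comparisons tested below, so those results are given with and without it.

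**Figure D1:**
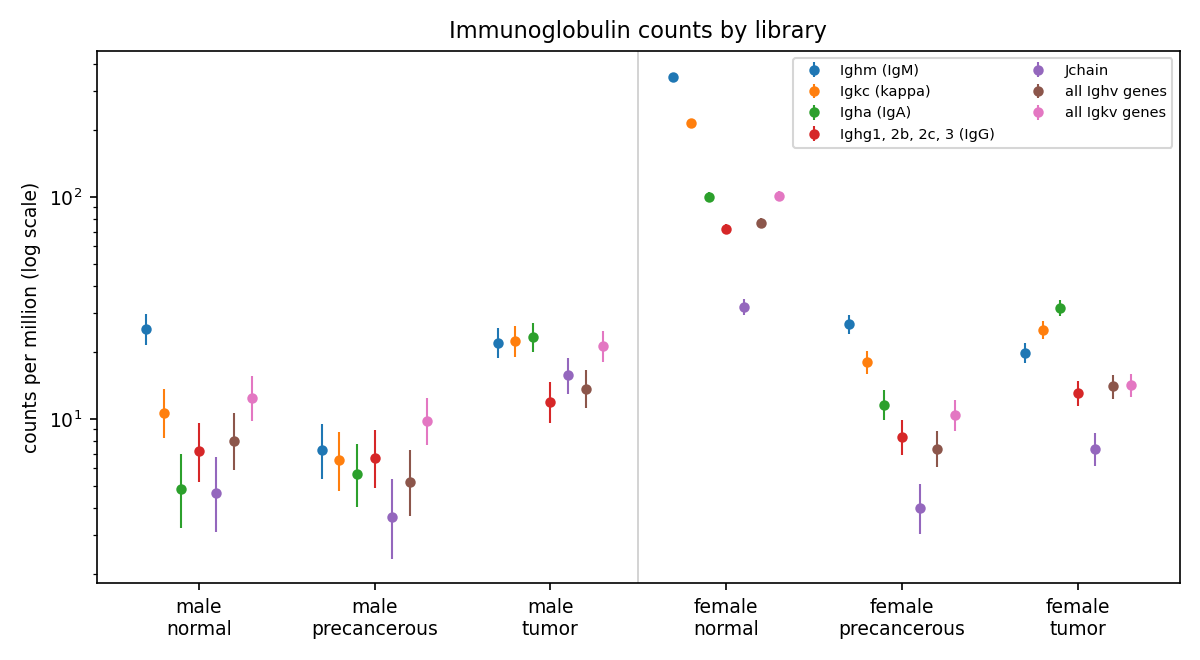
CPM (log axis) of the main immunoglobulin classes in each of the 6 libraries, with 95% exact Poisson intervals as bars. Every class is highest in female normal liver, where Ighm reaches 346 CPM; gene length is not taken into account, so the points compare libraries within a class and not the classes with each other.

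Between precancerous liver and tumor, immunoglobulin transcripts were higher in tumor in both sexes. The ratio of summed CPM was 2.91 (2.56 to 3.31) in males and 1.45 (1.35 to 1.55) in females. On the log2(FPKM + 1) scale, 14 of the 121 genes were higher by 2-fold or more in the male tumor, against 4.62% of all genes. In the female tumor 5 of 121 were, against 4.26%, so the female share was not above the background. None of the 121 was 2-fold lower in either sex, against 3.17% of all genes in males and 3.28% in females. On this scale a gene could be 2-fold lower only from an FPKM of at least 1 in precancerous liver. Most of the 121 were below that, so the absence of lower genes says little about direction. The ratios of summed CPM compare single libraries, and their intervals hold no variation between mice.

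Ighm, the IgM heavy chain constant gene (chr12:113418558-113422730, minus strand, GRCm38), carried most heavy chain counts in normal liver. It measured 25.5, 7.25 and 22.0 CPM in male normal, precancerous and tumor tissue, and 346, 26.8 and 19.9 CPM in the female tissues in the same order. Male precancerous liver was the lowest library. The step from precancerous liver to tumor went up in males, with a ratio of 3.04 (2.20 to 4.26), and down in females, with a ratio of 0.741 (0.642 to 0.856). Both intervals lie clear of 1, on opposite sides; with 1 library per group this difference between the sexes was not tested.

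Igha, the IgA heavy chain constant gene (chr12:113254830-113260236, minus strand), was higher in tumor than in precancerous liver in both sexes. It measured 4.84, 5.66 and 23.4 CPM in male normal, precancerous and tumor tissue, and 100.5, 11.6 and 31.8 CPM in the female tissues. The ratio of tumor to precancerous liver was 4.14 (2.91 to 6.02) in males and 2.74 (2.31 to 3.26) in females. Male normal and precancerous liver did not differ beyond counting error, with a ratio of 1.17 (0.706 to 1.96). Female tumor was below female normal liver, at 0.317 of its CPM (0.288 to 0.348).

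The share of Igha among the counts of the 6 heavy chain constant genes was higher in precancerous than in normal liver, and higher again in tumor, in both sexes. In males it was 12.9% in normal liver (29 of 225 counts, 95% exact binomial interval 8.80 to 18%), 28.9% in precancerous liver (39 of 135, 21.4 to 37.3%) and 40.8% in tumor (172 of 422, 36.0 to 45.6%). In females it was 19.4% (1774 of 9160, 18.6 to 20.2%), 24.9% (175 of 703, 21.7 to 28.3%) and 49.1% (587 of 1195, 46.3 to 52%). The intervals of neighbouring tissues were separate except for those of male precancerous liver and male tumor, which overlap slightly. The share of Ighm was 68.0%, 37.0% and 38.4% in males and 66.8%, 57.3% and 30.6% in females, so it was highest in normal liver of both sexes and, in females, lower again in tumor. A share does not depend on the library total, and female normal liver, apart by its amount of immunoglobulin transcript, had an Ighm share close to that of male normal liver. Dividing each count by the merged exon length of the gene, an alternative added after the data were seen, lowered the Igha shares to 9.48%, 22.5% and 32.8% in males and 14.5%, 18.6% and 39.3% in females and left their order as it was. With lengths taken into account Ighm exceeded Igha in the male tumor (43.7% of the total), whereas Igha exceeded Ighm in the female tumor (34.6% for Ighm).

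**Figure D2:**
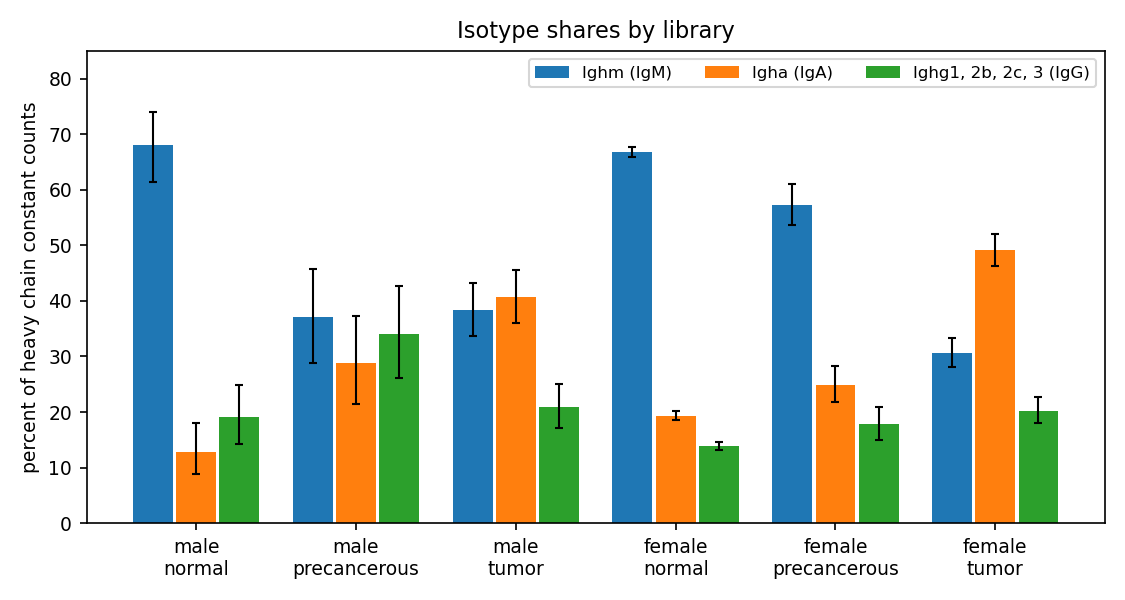
Percent of heavy chain constant counts that fell on Ighm, Igha and the 4 Ighg genes in each library, with 95% exact binomial intervals. In both sexes the Igha bar is taller in precancerous than in normal liver and taller again in tumor, from 12.9% to 40.8% in males and from 19.4% to 49.1% in females.

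The 4 IgG genes together were higher in tumor than in precancerous liver in both sexes. Summed, they gave 7.17, 6.67 and 12.0 CPM in male normal, precancerous and tumor tissue and 71.9, 8.31 and 13.1 CPM in the female tissues. The ratio of tumor to precancerous liver was 1.79 (1.24 to 2.62) in males and 1.58 (1.27 to 1.98) in females. Ighg2b and Ighg2c, the IgG2b and IgG2c constant genes, made up most of these counts: Ighg2b had 18, 19, 43, 617, 48 and 88 counts from male normal liver to female tumor, and Ighg2c had 17, 17, 34, 495, 69 and 147. Ighg2c measured 2.83, 2.47 and 4.63 CPM in the male tissues and 28.0, 4.59 and 7.97 CPM in the female tissues, so each female library was above the male library of the same tissue. Ighg3, the IgG3 constant gene, had 132 counts in female normal liver and 0, 2, 3, 3 and 1 counts in the other libraries, in the same order. Its 0 counts in male normal liver have an upper 95% Poisson limit of 0.615 CPM, compared with 7.48 CPM in female normal liver. Ighg1, the IgG1 constant gene, had 8 counts in each male library and 25, 5 and 6 in the female libraries, which gave 1.33, 1.16 and 1.09 CPM in males and 1.42, 0.332 and 0.325 CPM in females. The IgG share of heavy chain counts was 19.1%, 34.1% and 20.9% in males and 13.9%, 17.8% and 20.3% in females, with male precancerous liver highest.

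Light chain constant counts were mostly kappa in every library. Igkc, the only kappa constant gene (chr6:70726435-70726966, plus strand), measured 10.7, 6.53 and 22.5 CPM in male normal, precancerous and tumor tissue and 215, 18 and 25.2 CPM in the female tissues. Its ratio of tumor to precancerous liver was 3.44 (2.46 to 4.90) in males and 1.40 (1.20 to 1.63) in females, close to the ratios over all 121 genes. The lambda genes Iglc1, Iglc2 and Iglc3 had 5, 7 and 12 counts together in the male libraries and 108, 17 and 26 in the female libraries. Iglc1 had 3, 4 and 4 counts in males and 57, 5 and 14 in females, Iglc2 had 2, 2 and 3 against 31, 8 and 9, and Iglc3 had 0, 1 and 5 against 20, 4 and 3. Lambda thus made up 7.25%, 13.5% and 6.78% of light chain constant counts in males and 2.77%, 5.90% and 5.31% in females. Female normal liver had the lowest lambda share; its interval (2.28 to 3.33%) did not reach those of the other female libraries, but overlapped that of male normal liver (2.39 to 16.1%). Iglc3 shares 20.6% of its exon bases with 2010309G21Rik on the opposite strand, and it is not stated whether counting used the strand, so its counts cannot be assigned with certainty. Per kilobase of merged exon, a scale that allows genes to be compared, the level of Igkc was 404 and that of Ighm 184 CPM per kilobase in female normal liver, and 42.2 and 11.7 in the male tumor.

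Jchain (chr5:88519809-88527891, minus strand), which encodes the J chain, was higher in tumor than in precancerous liver in both sexes. It measured 4.67, 3.63 and 15.8 CPM in male normal, precancerous and tumor tissue and 31.9, 3.99 and 7.32 CPM in the female tissues. The ratio of tumor to precancerous liver was 4.35 (2.81 to 7.0) in males and 1.84 (1.35 to 2.53) in females. The male tumor held more Jchain than the female tumor, whereas Igha was higher in the female tumor. Counts of Jchain for each count of Ighm plus Igha were 0.154, 0.281 and 0.347 in the male tissues. In the female tissues they were 0.0715, 0.104 and 0.142. Within each sex the value was lowest in normal liver and highest in tumor. No interval was computed for these values, and those of male normal and precancerous liver rest on 28 and 25 Jchain counts. Male normal liver (0.154) lay close to female tumor (0.142), so the order of the libraries is a description only.

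**Figure D3:**
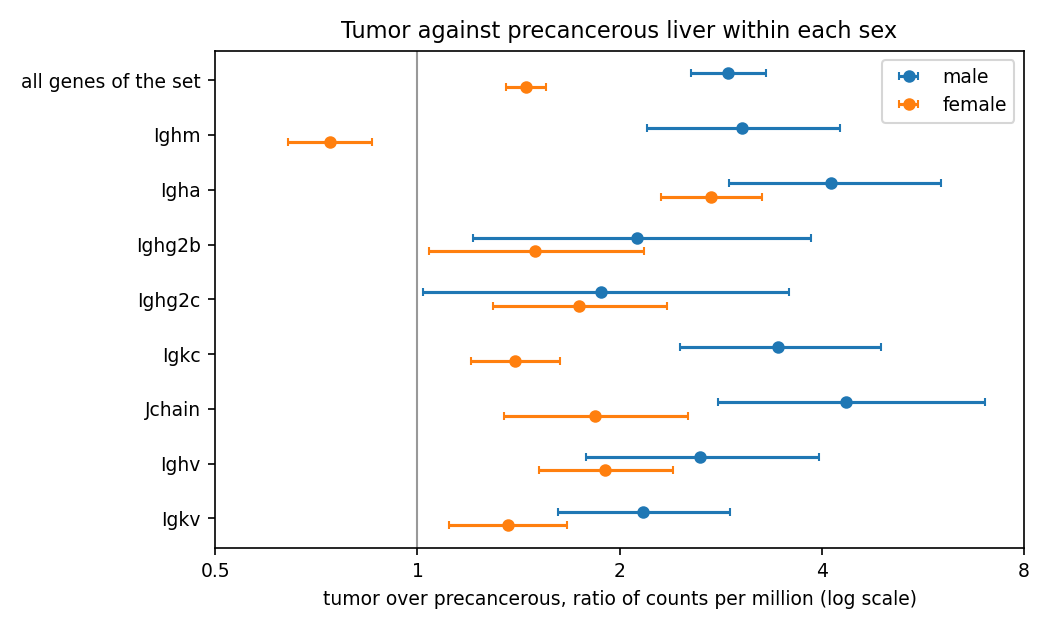
Ratio of CPM in tumor to that in precancerous liver (log axis) for all 121 genes, 6 single genes and the Ighv and Igkv sums, for males and females, with 95% counting intervals. Points to the right of 1 are higher in tumor; Ighm in females (0.741) is the one point to the left.

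The 110 variable genes gave 22.0, 15.4 and 36.7 CPM in male normal, precancerous and tumor tissue and 182, 18.5 and 29.3 CPM in the female tissues. The ratio of tumor to precancerous liver was 2.39 (1.90 to 3.02) in males and 1.59 (1.37 to 1.84) in females. In female normal liver a few genes took a large part of the counts of their locus. Ighv1-9 had 315 of 1355 Ighv counts there, or 23.2% (21.0 to 25.6%), and 0, 2, 1, 3 and 3 counts in the other libraries. Igkv5-39 had 300 of 1793 Igkv counts, or 16.7% (15.0 to 18.5%), and 11, 0, 3, 2 and 6 counts elsewhere. Igkv3-5 followed with 268 counts against 2, 0, 0, 1 and 1, and Igkv3-2 with 201 counts against 7, 1, 7, 4 and 5. Igkv3-10 had 149 counts against 1, 0, 2, 1 and 0. The 2 lambda variable genes were low: Iglv1 had 7, 1 and 11 counts in male and 64, 7 and 17 in female normal, precancerous and tumor tissue, and Iglv2 had 1 to 8 counts in each library. Together the 5 Igkv3 genes made up 37.1% (34.9 to 39.4%) of Igkv counts in female normal liver, and 2.94% to 20% in the other libraries.

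The germline variable exons of these genes are shown because near-identical members set how far their counts can be told apart. Each run is the coding strand from base 12 of the annotated variable exon onward, from the GENCODE vM21 transcripts (GRCm38). The run shown for the leading heavy chain gene lies at chr12:114583569-114583862 on the minus strand. That for the leading kappa gene lies at chr6:69900424-69900710 on the minus strand.
Ighv1-9: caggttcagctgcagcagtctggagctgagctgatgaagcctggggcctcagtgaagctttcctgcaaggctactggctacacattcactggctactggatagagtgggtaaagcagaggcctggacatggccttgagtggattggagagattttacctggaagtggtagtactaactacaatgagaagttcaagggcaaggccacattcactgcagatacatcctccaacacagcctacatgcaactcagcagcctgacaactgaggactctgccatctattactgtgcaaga
Igkv5-39: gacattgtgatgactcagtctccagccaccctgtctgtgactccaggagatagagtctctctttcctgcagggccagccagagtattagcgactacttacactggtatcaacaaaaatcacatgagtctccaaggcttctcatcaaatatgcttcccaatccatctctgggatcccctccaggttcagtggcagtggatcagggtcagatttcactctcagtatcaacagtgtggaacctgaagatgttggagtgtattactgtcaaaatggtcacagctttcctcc
The runs shown for the 3 Igkv3 genes lie on the plus strand at chr6:70663597-70663895 (Igkv3-5), chr6:70572932-70573230 (Igkv3-10) and chr6:70698769-70699067 (Igkv3-2). Capitals mark the bases at which Igkv3-10 and Igkv3-2 differ from Igkv3-5.
Igkv3-5: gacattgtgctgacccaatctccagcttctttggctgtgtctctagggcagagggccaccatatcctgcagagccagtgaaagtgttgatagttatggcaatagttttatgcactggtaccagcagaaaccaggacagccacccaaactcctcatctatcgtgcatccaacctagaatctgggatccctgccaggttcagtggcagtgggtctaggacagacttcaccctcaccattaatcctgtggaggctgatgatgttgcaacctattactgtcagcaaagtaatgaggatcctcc
Igkv3-10: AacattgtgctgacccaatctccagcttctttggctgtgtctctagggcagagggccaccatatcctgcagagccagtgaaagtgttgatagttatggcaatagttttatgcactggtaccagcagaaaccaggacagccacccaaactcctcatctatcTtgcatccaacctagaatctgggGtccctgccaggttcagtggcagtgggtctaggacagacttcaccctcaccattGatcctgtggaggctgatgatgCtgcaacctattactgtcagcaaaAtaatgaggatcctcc
Igkv3-2: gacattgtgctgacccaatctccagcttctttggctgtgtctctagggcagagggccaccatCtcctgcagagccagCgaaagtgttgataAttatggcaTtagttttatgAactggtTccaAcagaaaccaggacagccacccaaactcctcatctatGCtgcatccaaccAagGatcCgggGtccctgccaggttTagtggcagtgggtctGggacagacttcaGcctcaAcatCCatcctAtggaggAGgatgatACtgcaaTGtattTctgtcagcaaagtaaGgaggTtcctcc
Over the whole variable exon Igkv3-10 was 98.1% identical to Igkv3-5, with 6 of the 299 bases shown in capitals, and Igkv3-2 was 90.6% identical, with 29 in capitals. Of the 50-base windows of each transcript, 48.6% in Igkv3-5, 54.3% in Igkv3-10 and 78.7% in Igkv3-2 occurred in no other annotated transcript, so how the counts divide among these 3 genes is uncertain. Ighv1-9 and Igkv5-39 had 99.4% and 100% unique windows, and their counts are less open to such sharing. The gene with the next most Ighv counts in female normal liver, Ighv1-53 (172 counts against 3, 4, 13, 4 and 7), had only 42.4% unique windows. Ighv1-64, with 112 counts against 1, 0, 2, 5 and 18, had 66.6%. Over all 121 genes the median was 77.6%, and 17 genes were under 50%.

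Per kilobase of merged exon, the level of Ighv1-9 in female normal liver was 50.8, that of Igkv5-39 was 49.0, that of Igkv3-5 was 39.7, that of Igkv3-2 was 30.1 and that of Igkv3-10 was 23.1 CPM per kilobase, so the order of the kappa genes was the same as by counts. The deposited FPKM of Ighv1-9 there was 27.3, below the 27.8 of Ighv1-53, because the length behind it was 653 bases against 351 bases of merged exon; by counts Ighv1-9 had 315 and Ighv1-53 172. The 3 Igkv3 genes lay 27.4 kb (Igkv3-2), 62.5 kb (Igkv3-5) and 153.2 kb (Igkv3-10) from Igkc, and Igkv5-39 lay 825.5 kb away, so the leading kappa genes were not all neighbours. The Ighv1 family, with 31 of the 52 Ighv genes, took 80.8% (78.6 to 82.9%) of Ighv counts in female normal liver. In the other libraries its share was 58.7% to 75%, lowest in female tumor.

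In the other libraries the leading genes rested on far fewer counts. The leading Ighv gene took 6.95% (Ighv1-64) of the locus counts in female tumor, 9.01% (Ighv1-26) in female precancerous liver, 12.9% (Ighv1-53) in male tumor and 8.33% (Ighv1-26) in male normal liver. In male precancerous liver Ighv1-53, Ighv1-26 and Ighv1-56 tied at 4 of 36 counts. The leading Igkv gene was Igkv5-39 in male normal liver (11 of 75 counts, 14.7%, interval 7.56 to 24.7%), the same gene as in female normal liver and at a share that did not differ beyond its interval. It was Igkv1-110 in male precancerous liver (9 of 68), Igkv4-55 in male tumor (12 of 157), Igkv19-93 in female precancerous liver (9 of 157) and Igkv1-117 in female tumor (25 of 262). Outside female normal liver these leaders rest on 4 to 25 counts each.

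Evenness was summarised as the effective number of genes, the exponential of the Shannon entropy of the counts, which equals the number of genes when all are used alike. Because it grows with depth, the counts of each locus were thinned to the smallest library (36 for Ighv, 68 for Igkv). The thinned effective number of Ighv genes was 24.4, 16.2 and 20.2 in male normal, precancerous and tumor tissue and 12.5, 21.6 and 21.2 in the female tissues. That of Igkv genes was 25, 30.8 and 27.9 in the males and 16.5, 30.8 and 26.8 in the females. Female normal liver was the lowest library at both loci. Unthinned, it had 22.1 effective Ighv genes, above male precancerous liver at 16.2, and 24.2 effective Igkv genes, the lowest of the 6. Without the 3 leading Ighv and 3 leading Igkv genes, the other 104 variable genes were 5.82 times (4.80 to 7.14) higher in female than in male normal liver. For all 110 the ratio was 8.29 (6.96 to 9.94). The genes passed on summed counts that came mostly from female normal liver, some only through it (Ighv1-72 with 60 of 62 counts there). The leading genes were picked on mean CPM, which includes that library, so the 5.82 is a description only. With the leading genes left out the ratio of tumor to precancerous liver was 2.31 (1.82 to 2.95) in males and 1.58 (1.35 to 1.84) in females.

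**Figure D4:**
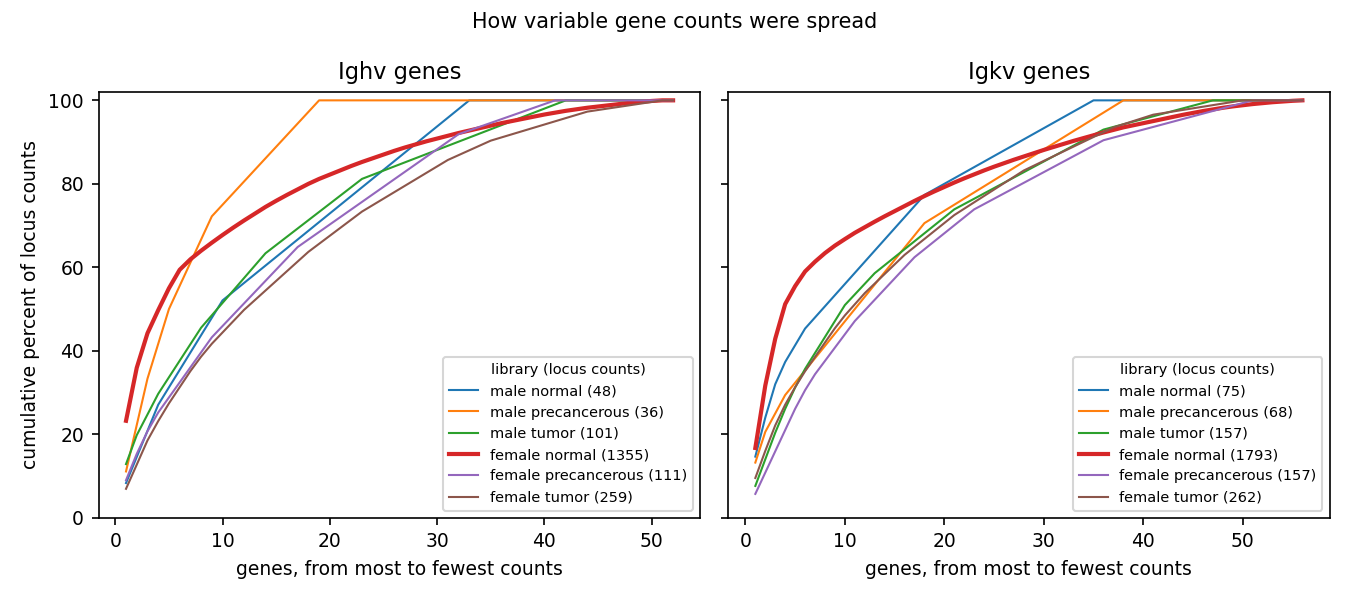
Cumulative percent of locus counts against the number of genes, ordered from most to fewest counts, for Ighv (left) and Igkv genes (right), with 1 line per library and the locus counts in the legend. The female normal line starts highest, at 23.2% for the leading Ighv gene and 16.7% for the leading Igkv gene; lines of libraries with few counts reach 100% early because few genes have a count.

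Across all 6 libraries, tissue and sex were tested gene by gene with edgeR's quasi-likelihood test on 17142 genes, with 2 residual degrees of freedom and Benjamini-Hochberg adjusted p under 0.05. All 121 genes were in the fit. Between tumor and precancerous liver 0 of the 121 were called in either direction, against 10.6% of all genes called higher and 9.40% called lower. At an unadjusted p under 0.05 the count was 1 higher and 0 lower, and the number over all genes was not computed there. DESeq2 called 0 of the 121, against 1393 higher and 1379 lower among 17142 genes. With limma on log2(FPKM + 1) 2 were called higher and 1 lower, against 1663 and 966 of all genes. Igha had a log2 fold change of 1.82 (SE 0.89, edgeR adjusted p = 0.206) and Jchain 1.57 (SE 0.89, edgeR adjusted p = 0.275). Without the female normal library, 2 of the 121 were called higher in tumor, against 12.3% of all genes, and these were Igha (log2 1.64, SE 0.18, edgeR adjusted p = 0.00297) and Jchain (log2 1.38, SE 0.32, edgeR adjusted p = 0.0309). Both were higher in tumor in each sex. Fits without that library have 1 residual degree of freedom, and the other groups, with 1 library each, supply the spread. Ighm was not called, at log2 0.35 (SE 0.42, edgeR adjusted p = 0.608), with the sexes going opposite ways as given above.

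Between precancerous and normal liver 2 of 121 were called lower, against 0.245% of all genes, and 0 higher, against 0.233%. They were Igkv3-5 (log2 fold change -7.56, SE 0.55, edgeR adjusted p = 0.0130) and Igkv5-39 (-6.80, SE 0.86, edgeR adjusted p = 0.0483). Both had 0 counts in male precancerous liver, so the fitted sizes depend on the prior count. Between tumor and normal liver 13 of 121 were called lower, against 12.2% of all genes, a share not above the background, and 0 higher, against 14.1%. All 13 were variable genes, led by Igkv3-5 (-7.86, SE 0.55, edgeR adjusted p = 0.000760) and Igkv5-39 (-4.95, SE 0.71, edgeR adjusted p = 0.00545). Without the female normal library no member was called lower in either comparison, and 1 was called higher in tumor than in normal liver, against 7.76% of all genes: Igha, at log2 2.08 (SE 0.29, edgeR adjusted p = 0.00847). Male normal liver alone then stood for normal tissue and was assumed to vary like the other groups. The direction of this value depends on the normal libraries: with all 6 Igha had log2 -0.39 (SE 0.84, edgeR adjusted p = 0.777), and without male normal liver log2 -1.64.

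Between females of 15 months and males of 9 months, 11 of 121 were called higher in females, against 13.0% of all genes, and 0 lower, against 14.9%, so the members' share was not above the background. Of these 11, 10 were variable genes, with Igkv3-5 (log2 5.48, SE 0.52, edgeR adjusted p = 0.00241) and Ighv1-64 (3.88, SE 0.72, edgeR adjusted p = 0.0144) first by p, and the remaining gene was Ighg2c (1.79, SE 0.51, edgeR adjusted p = 0.0462). Without the female normal library, 1 member was called higher in females, against 7.62% of all genes, and this was Igha (log2 0.78, SE 0.18, edgeR adjusted p = 0.0378). Ighg2c then had log2 0.93 and an edgeR adjusted p of 0.0597. The 4 comparisons share libraries, so their calls are not independent of each other.

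Other B lineage genes were read beside the immunoglobulins. The 14 listed B cell genes, such as Cd79a (a subunit of the B cell receptor complex) and Ms4a1 (CD20), summed to 14.2, 10.9 and 11.8 CPM in male normal, precancerous and tumor tissue and 45.8, 23.7 and 16.5 CPM in the female tissues. They were highest in female normal liver, like the immunoglobulin genes, but the female tumor was the lowest of the female libraries, whereas the immunoglobulin sum was higher in tumor than in precancerous liver in both sexes. Of the 14, 0 were called between tumor and precancerous liver by edgeR; Cd37, Cd79a, Ms4a1 and Pax5 were among those called lower in tumor than in normal liver, with a median log2 fold change over the list of -1.86 against 0.02 over all genes. Cd79a had 6, 3 and 2 counts in the male tissues and 75, 21 and 11 in the female tissues (log2 -2.68, SE 0.44, edgeR adjusted p = 0.00859 for tumor against normal liver). Without the female normal library none of the 14 was called in any of the 4 comparisons. Ighd, the IgD constant gene of resting B cells, had 5, 1 and 5 counts in males and 76, 27 and 13 in females.

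Of the 12 listed plasma cell genes other than immunoglobulins, 11 were tested. Mzb1, a chaperone of IgM assembly, had 47 counts in female normal liver, 6 in female precancerous liver and 7 in female tumor, and Pou2af1, a B cell coactivator, had 65 counts there against 4, 5, 4, 10 and 15 elsewhere. Both were at least 4 times every other library in female normal liver. Mzb1 shares 57.2% of its exon bases with another gene on the same strand, which leaves its counts uncertain. Fkbp11, a folding enzyme of the secretory pathway, was called higher in tumor than in precancerous liver (8.67, 12.3 and 35.8 CPM in males, 2.15, 4.25 and 28.2 CPM in females; log2 2.09, SE 0.37, edgeR adjusted p = 0.0145), but it was lowest in female normal liver, where immunoglobulin transcripts were highest. With all 6 libraries Fkbp11 was the only gene of the 11 called in that comparison, against 10.6% of all genes called higher. Against normal liver Fkbp11 and Derl3 were called higher in tumor, 2 of the 11 against 14.1% of all genes. Without the female normal library Slamf7 and Derl3 were called higher in tumor than in precancerous liver as well. That made 3 of the 11, against 12.3% of all genes. Slamf7 is a surface receptor of plasma cells and other lymphocytes. Slamf7 measured 0.334, 0.725 and 3.95 CPM in males and 3.0, 1.33 and 3.80 CPM in females. The list's defining receptor Tnfrsf17 (BCMA) was at 0 counts throughout. Hepatocytes express several genes of this list, among them Xbp1 (112 to 228 CPM) and Sdc1 (172 to 284 CPM), so its summed level was not read.

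Genes of antibody transport and of the niche of B lineage cells were measured in the same libraries. Pigr, which carries IgA and IgM with J chain across epithelium, was called lower in tumor: it measured 1597, 1580.3 and 288 CPM in males and 2354, 1677 and 463 CPM in females (tumor against precancerous log2 -2.24, SE 0.23, edgeR adjusted p = 0.00326). Of the 9 transport and Fc receptor genes, 4 were called lower in tumor than in precancerous liver: Pigr, Fcgrt (the receptor that recycles IgG), Fcgr2b and Cd5l, a macrophage protein that binds IgM. Over all genes 9.40% were called lower. Of the 7 listed macrophage genes 5 were called lower in the same comparison (Adgre1, Clec4f, Csf1r, Marco and Timd4), and their list summed to 417 and 192 CPM in male and 566 and 259 CPM in female precancerous liver and tumor. The part of macrophages in the receptor values was not tested. In the same 2 tissues Igha was 4.14 and 2.74 times higher in tumor. Of 10 ligands that attract or sustain B lineage cells, 5 were tested. Of these, 2 were called higher in tumor than in precancerous liver, against 10.6% of all genes: Tnfsf13 (APRIL, a survival factor of plasma cells) and Ltb (lymphotoxin beta). Tnfsf13 measured 1.5, 9.29 and 22.0 CPM in males and 1.19, 4.59 and 20.8 CPM in females (log2 1.65, SE 0.25, edgeR adjusted p = 0.00972), although 60% of its exon bases are shared with a readthrough gene. Tnfsf13b (BAFF) had 2 to 9 counts in each library. Cxcl12 was called lower in tumor than in precancerous liver, against 9.40% of all genes. Against normal liver Tnfsf13 and Ltb were again called higher in tumor (14.1% of all genes higher), and Cxcl12 and Cxcl13 lower (12.2% lower). Of the 6 listed genes of B cell precursors, Rag1, Rag2 and Igll1 had 0 counts in all 6 libraries, Vpreb1 had 1 to 5 and Vpreb3 0 to 5 counts in each, and Dntt had 9 to 146.

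Markers of other cell types were read beside the immunoglobulins. The 14 T and NK cell genes summed to 10.2, 6.67 and 17.3 CPM in males and 19.9, 8.17 and 17.6 CPM in females, so female normal liver was highest here too, at a smaller margin than for the immunoglobulins. Their sum was also higher in tumor than in precancerous liver in both sexes, as the immunoglobulin sum was. Of the 14, Cd3e (a T cell receptor subunit) and Nkg7 (a protein of cytotoxic granules) were called higher in that comparison by edgeR, against 10.6% of all genes, and Nkg7 alone without the female normal library. The median log2 fold change over the list was 0.94. The 7 macrophage genes summed to 379 CPM in female normal liver, inside the range of the other libraries (192 to 566 CPM). Pancreatic acinar genes had at most 7 counts in a library. Alas2 and the 4 globin genes gave 112 CPM in female normal liver, within the range of the others (99.6 to 221 CPM). The part that lymphoid cells or tissue in the sampled piece had in the female normal values, or in the difference between tumor and precancerous liver, was not tested.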

How the data were processed

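Liver RNA of 6 groups was sequenced after stranded mRNA library preparation, per the labels' protocols. The authors deposited 1 table with the unnormalized count and the FPKM of each gene in each library. The submitters' processing notes name TopHat2 2.0.9, Cuffdiff, GRCm38 and mm10; how strand was handled in counting is not stated there. The FPKM the authors deposited equalled the count divided by the library total and 1 gene length. For 119 of the 121 genes (not Ighg2c and Ighg3) that length was the sum of the gene's annotated exons with overlapping exons counted more than once, and for 37 it exceeded 1.5 times the merged length, so levels of single genes were compared per merged exon length of GENCODE vM21 (Ighg2c and Ighg3 there rest on another gene model). Count shares and count ratios between genes carry gene length and were compared between libraries.

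The genes, lists and tests were chosen with earlier results of these data known. CPM values used the count total. The additive model of tissue and sex was fitted with edgeR 4.0.16 (quasi-likelihood, TMM) in R 4.3.3 on genes with at least 10 summed counts, and tested on simulated data. With 1 library per group, departure from that additive model supplies the spread against which tissue and sex were tested, and variation between mice was not measured. DESeq2 1.42.0, limma 3.58.1 (limma-trend on log2(FPKM + 1) and log2(FPKM + 0.1)), other size factors and filters, and fits without each library were alternatives. Intervals are exact Poisson, exact binomial (Clopper-Pearson) or exact conditional binomial for ratios, at 95%, from scipy 1.17.1. Named were every constant gene and Jchain, the leading variable genes over all libraries and in each library, the 2 called variable genes with smallest adjusted p per comparison and direction, genes at the threshold, and the most abundant and the called genes of each list. Igkv3-10 was added after its values were seen. Results of some listed genes are not reported here.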

Additional observations from a re-analysis of the deposited data

Results flagged for a closer look

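In several comparisons the 2 sexes moved in opposite directions, each beyond its counting interval; with 1 library per group the differences were not tested. Ighm was 3.04 times higher in tumor than in precancerous liver in males and stood at 0.741 of the precancerous level in females. The other cases set tumor against normal liver and rest on the female normal library. The ratio of tumor to normal liver was 1.77 in males and 0.134 in females for all 121 genes, and 1.67 and 0.161 for the variable genes. It was 4.84 and 0.317 for Igha, 1.67 and 0.183 for the Ighg genes, 2.10 and 0.117 for Igkc, and 3.38 and 0.229 for Jchain, in males and females in that order.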

How the results depend on the processing

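Calls rested on single libraries. The number called among all genes also moved with each setting, so the counts below show only how far calls moved. Shares called not above the background were those of the edgeR fit of all 6 libraries. Without male normal liver or male tumor, the share of members called lower in tumor than in normal liver was above that of all genes. Without male tumor, so was the share of members called higher in females. Genes called higher in tumor than in precancerous liver (0) became 2 and 6 with limma at the larger and smaller pseudocount and 0 to 3 when 1 library was left out, with 3 without male normal and 2 without female normal liver; limma called 1 lower at each pseudocount. The 2 genes called lower in precancerous than in normal liver became 0 with the FPKM filter and 0 with limma, and 0 to 11 with 1 library left out: 0 without male precancerous, female precancerous or female normal liver, 4 without female tumor, 7 without male normal liver and 11 without male tumor. For tumor against normal liver, limma called 2 higher at each pseudocount and leaving out libraries gave 0 to 1. The 13 lower became 2 with DESeq2, 3 with the FPKM filter and 6 with limma at the larger pseudocount, and 0 to 33 with 1 library left out: 0 without female normal or female tumor, 8 without either precancerous library, 30 without male normal liver and 33 without male tumor. The 11 genes called higher in females became 3 with DESeq2, 2 with the FPKM filter and 7 with no filter beyond 1 count, and 1 to 22 with 1 library left out: 1 without male precancerous or female normal, 2 without male normal or female precancerous, and 22 without male tumor; limma called 1 lower at each pseudocount. Igha in tumor against normal liver (log2 -0.39) reversed to 0.0912 and 0.279 with limma and ranged from -1.64 to 2.08 with 1 library left out. Over the 44 fitted fold changes of constant genes and Jchain, 46 of 516 alternative values had the opposite sign, 38 of them with a library left out.

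Summed CPM without the 20 most abundant genes in the total was 93.4, 61.3 and 191 in male normal, precancerous and tumor tissue and 1297, 125 and 187 in the female tissues; with a threshold of 50 counts it was 62.7, 35.4 and 108, and 887, 74.8 and 107; with TMM sizes female normal liver gave 1010.2. Thinning moved the effective number of Ighv genes to 20.2 in male tumor and to 12.5, 21.6 and 21.2 in the female tissues. Per merged exon length the Ighm share was 43.7% in male tumor, 70.9% in female normal liver and 34.6% in female tumor, and the Igha share 32.8% in male tumor and 14.5%, 18.6% and 39.3% in the female tissues. Apart from the effects shown by fewer genes or libraries in a fit, the cause of these shifts was not tested. Male libraries held 36 to 157 counts at the Ighv or Igkv locus and 2 to 12 for the lambda variable genes, which limits every statement on single variable genes there. No paired analysis was possible because each group holds 1 library and the labels tie no tumor to a precancerous sample.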

Other observations

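Counts of variable genes relative to the constant genes of the same chain differed between libraries. There were 1.17, 1.51 and 0.952 Igkv counts for each Igkc count in male normal, precancerous and tumor tissue, and 0.473, 0.579 and 0.565 in the female tissues, so every male library was above every female one. For the heavy chain the corresponding ratio of Ighv to constant counts was 0.213, 0.267 and 0.239 in males and 0.148, 0.158 and 0.217 in females. Ighd counts for each Ighm count were 0.0327, 0.0200 and 0.0309 in males and 0.0124, 0.0670 and 0.0355 in females, lowest in female normal liver and highest in female precancerous liver, on 76 and 27 Ighd counts.

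Dntt, the terminal transferase of lymphocyte precursors, was called higher in tumor than in normal liver (log2 2.11, SE 0.41, edgeR adjusted p = 0.0145), with 9, 32 and 99 counts in male normal, precancerous and tumor tissue and 48, 90 and 146 in the female tissues, while Rag1, Rag2 and Igll1 were at 0 counts in all 6 libraries. Vpreb1 and Vpreb3, with 18 and 14 counts in all, were tested and not called in any of the 4 comparisons.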
